A study of Mus musculus with 4 samples.

Results

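Fatty acid metabolism in Hepa1-6 cells was described through 41 genes that encode the enzymes of fatty acid synthesis and oxidation, with a fatty acid binding protein and 2 nuclear receptors. The genes were picked by name from the known pathways, with earlier results of these data known. They were taken out of 54838 genes listed in each file, and 39 of the 41 passed the filter on low counts. They divided into 13 genes of synthesis, elongation and desaturation, 4 acyl-CoA synthetases that activate fatty acids, 21 genes of oxidation, and 3 genes for the binding protein and receptors. Hepa1-6 is an established mouse hepatoma line. RNA sequencing compared 2 libraries labelled NC, with the genotype Acvr2a wild type, and 2 libraries labelled KO, with the genotype Acvr2a knockout. Acvr2a encodes a type II receptor for activins. The series describes the KO cells as subclones and does not say whether the 2 KO libraries came from 1 subclone or from different ones. No treatment, time point or further allele was given for either group. Nothing in the labels states that the libraries of a group came from separate cultures, so the p-values measure only the spread between these libraries.

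The libraries held 11597923 (NC 1), 13910582 (NC 2), 12918031 (KO 1) and 13501489 (KO 2) counts assigned to genes, of which the 41 genes took 0.520% to 0.581%. Levels are given as CPM (a gene's counts relative to the library's total, scaled by the TMM factors of edgeR) where 1 gene is followed across libraries, and as TPM (transcript abundance relative to the library, corrected for transcript length) where genes are compared with each other. Acvr2a was counted 81 and 108 times in the NC libraries and 75 and 97 times in the KO libraries, a log2 difference of -0.21 (SE 0.20, adjusted p = 0.433 in edgeR's quasi-likelihood test). The RNA level of the targeted gene therefore did not separate the labels. This level does not by itself test the genotype, and KO and NC below mean the libraries so labelled. Across all 12510 genes tested, 37.9% passed an adjusted p of 0.05 (Benjamini-Hochberg), with 19.7% higher and 18.2% lower in KO. Of 9 hepatocyte and hepatoma markers tested, 2 were higher (Alb and Trf) and 2 lower (Afp and Hnf4a), and the summed TPM of the list of 10 lay at 2490 to 2601 in NC and 2854 to 3002 in KO. Much of this sum was the keratins Krt18 (994 to 1155 TPM over the libraries) and Krt8 (389 to 482 TPM). Ttr, a defining hepatocyte marker, had at most 1 count in a library, Apoa1 had 17 to 39 and Apoa2 had 15 to 19. Summed TPM of the leukocyte, endothelial and adipocyte lists stayed at or below 1.93 in each library, with Cd3e, Cdh5, Tek, Emcn, Plin1 and Cfd at 0. The bile duct list summed to 315 to 317 TPM in NC and 369 to 376 TPM in KO, with Krt7, Krt19 and Epcam higher and Sox9 lower among 5 tested. The fibroblast list summed to 1032 to 1094 TPM in NC and 1229 to 1234 TPM in KO, nearly all of it Dcn, with Col3a1 and Lum at 0. Of its 2 markers tested, Col1a1 was higher in KO, counted 6 times in NC 1, 5 times in NC 2, 38 times in KO 1 and 41 times in KO 2. The part of these marker differences in the results below was not tested, and in bulk RNA fewer cells expressing a gene and less of its RNA per cell cannot be told apart.

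Cells make fatty acids in the cytosol. ATP citrate lyase and acetyl-CoA synthetase supply acetyl-CoA, acetyl-CoA carboxylase turns it into malonyl-CoA, and fatty acid synthase joins these units into palmitate, which elongases lengthen and desaturases provide with double bonds. Malonyl-CoA also inhibits carnitine palmitoyltransferase 1, the gate through which activated fatty acids enter mitochondria, so an intermediate of synthesis restrains oxidation. Inside mitochondria, rounds of dehydrogenation, hydration, dehydrogenation and thiolysis release acetyl-CoA, and the electrons pass through the electron transfer flavoprotein to the respiratory chain. Peroxisomes run a separate oxidation system for very long and branched chains.

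Of the 39 genes tested, 16 (41%) passed the threshold, 5 higher and 11 lower in KO, against the 37.9% of all genes above. The share of these genes that passed was thus near the background, and the median log2 difference was -0.08, beside 0.00 over all genes. The counts by step below stand beside 19.7% higher and 18.2% lower among all genes, and each step holds few genes. Changes larger than 2-fold were found for 2 of them, Acss2 and Acacb, both higher in KO. The others that passed moved by 0.27 to 0.59 on the log2 scale. Whether the CPM values of the groups overlap is given below as a description. For 2 against 2 libraries even full separation has a two-sided exact permutation p of 0.333. How many of all genes were separated was not counted, and separation adds no support to a test on the same counts. In fits that left out 1 library fewer genes passed, among these genes as among all genes. In most of these fits some of the genes that passed were not among the 16. Acss2, Acacb, Elovl6, Acsl5 and Acadvl kept their calls under 11 of the 12 alternative analyses; the twelfth, limma fitted to log2(TPM + 1) of unfiltered genes, called 0 genes of 41 (9 of them at an unadjusted p under 0.05) and 0 genes overall. The other 11 calls were lost with limma on log2(TPM + 1) also where the filter was kept. One alternative was a stricter filter, at 50 counts in both libraries of a group. Acacb entered that fit only through KO, with 65 and 92 counts beside 20 and 38 in NC. That fit therefore adds no support for the Acacb call.

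**Figure D1:**
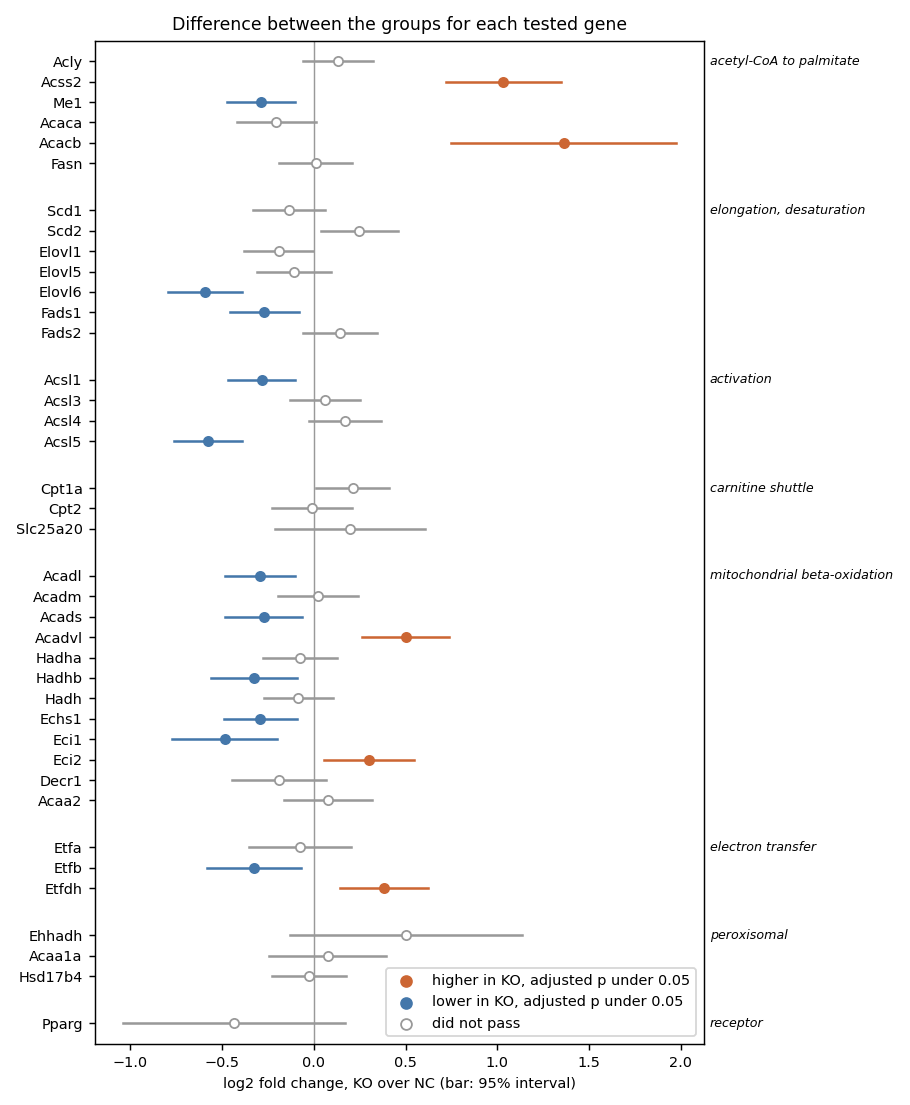
Log2 difference KO minus NC of the 39 genes tested (horizontal axis), one row per gene and grouped by role, with bars for the 95% confidence interval and filled points for genes past an adjusted p of 0.05 (orange higher, blue lower in KO). Acacb (1.36) and Acss2 (1.03) lie farthest to the right, and Elovl6 (-0.59) and Acsl5 (-0.58) farthest to the left.

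Of the 6 cytosolic genes that make palmitate, 2 rose in KO, 1 fell and 3 did not pass. Both that rose were the less abundant of 2 genes with related roles, Acss2 beside Acly and Acacb beside Acaca. Acss2, the cytosolic synthetase that makes acetyl-CoA from acetate, was measured at 9.06 and 10.0 CPM in NC and at 18.6 and 20.6 CPM in KO. Each KO library lay well above both NC libraries, and the difference was 1.03 on the log2 scale, or 2.05-fold (SE 0.15, 95% confidence interval 0.72 to 1.34, adjusted p = 5.77e-06, edgeR). Acacb, the acetyl-CoA carboxylase tied to the mitochondrial surface whose malonyl-CoA acts on carnitine palmitoyltransferase 1, was measured at 1.76 and 2.74 CPM in NC and 4.93 and 6.81 CPM in KO. These values rest on 20, 38, 65 and 92 counts, the groups did not overlap, and the log2 difference was 1.36, or 2.57-fold (SE 0.30, 95% confidence interval 0.75 to 1.97, adjusted p = 0.000577, edgeR). Both changes had the same direction in all 4 fits that left out a library. Exons of Acss2 overlap those of Acss2os, Ggt7 and Gss on the other strand, and the strand setting of the counting was not given in the sources used here.

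Acly, Acaca and Fasn, which stand for the same route at higher levels, did not pass. Acly, the citrate lyase that supplies most cytosolic acetyl-CoA, was measured at 238.8 and 258.9 CPM in NC and at 287.0 and 258.9 CPM in KO, a log2 difference of 0.13 (SE 0.09, adjusted p = 0.269, edgeR). For Acaca, the cytosolic carboxylase, the values were 60.3 and 71.8 CPM in NC and 61.5 and 53.5 CPM in KO, so that the groups overlapped, with a difference of -0.20 (SE 0.11, adjusted p = 0.128, edgeR). Without NC 1 the Acaca difference was -0.32 and without KO 1 it was -0.31, and in both of those fits it passed. Fasn, the multifunctional synthase that builds palmitate, was measured at 466.5 and 511.9 CPM in NC and at 532.3 and 453.2 CPM in KO. Its difference was 0.01 with a 95% confidence interval of -0.19 to 0.21, which covers small changes of this RNA in either direction. Me1, the malic enzyme that supplies cytosolic NADPH, fell by 0.29 in log2 units (SE 0.09, adjusted p = 0.0136, edgeR), from 250.1 and 264.1 CPM to 205.5 and 216.3 CPM. Its groups did not overlap, but the call was lost without NC 2 (-0.24) and without KO 1 (-0.25), and Me1 shares exonic sequence with A330041J22Rik on the other strand.

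**Figure D2:**
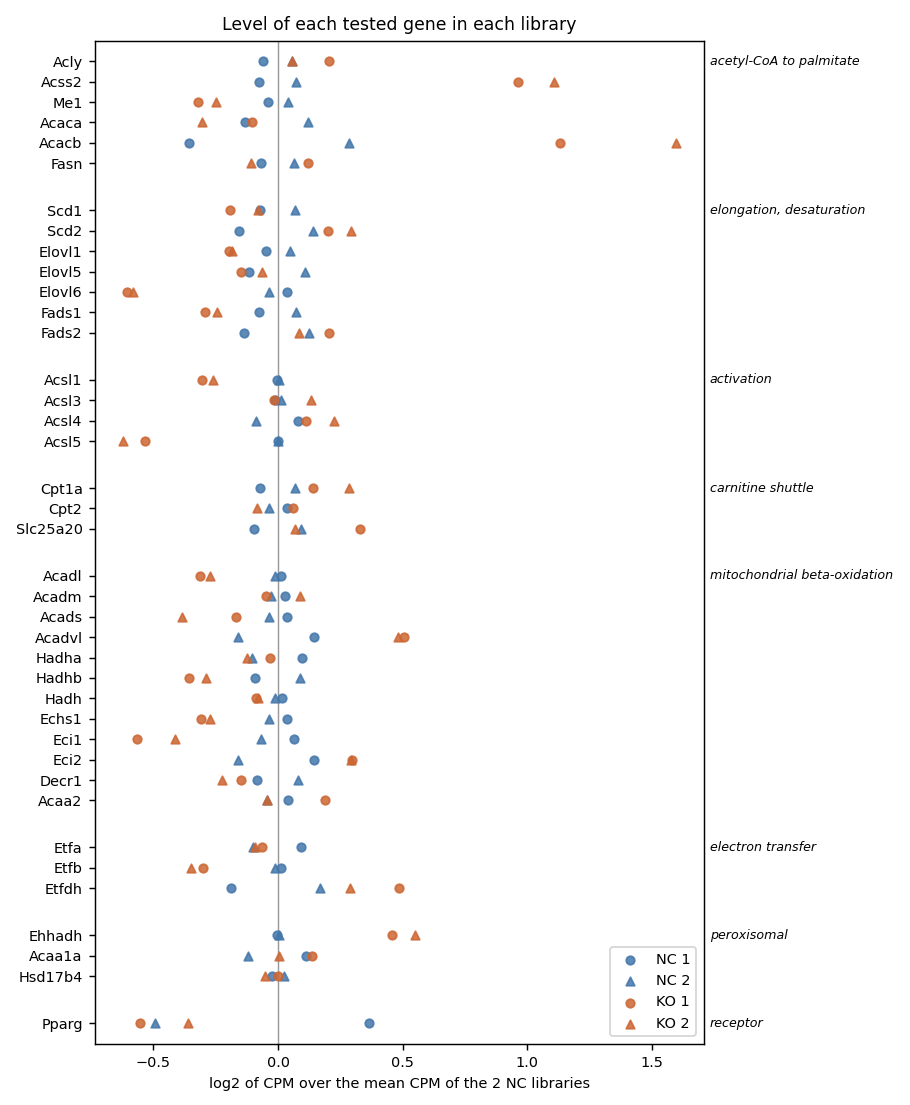
Level of each tested gene in each of the 4 libraries, as log2 of its CPM over the mean CPM of the NC libraries (horizontal axis), one row per gene, NC in blue and KO in orange. Both KO points of Acss2 (18.6 and 20.6 CPM) and Acacb (4.93 and 6.81 CPM) stand to the right of their NC points, whereas for Fasn the points of the groups are mixed.

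Among the 7 elongases and desaturases, 2 fell in KO, none rose and 5 did not pass. Elovl6, the elongase that takes palmitate to stearate, gave 65.5 and 62.3 CPM in NC and 42.0 and 42.7 CPM in KO. Every KO value was below every NC value by a margin far wider than the spread within a group, and the log2 difference was -0.59 (SE 0.10, 95% confidence interval -0.80 to -0.39, adjusted p = 3.31e-05, edgeR). Fads1, the delta-5 desaturase of polyunsaturated fatty acids, went from 196.7 and 218.5 CPM to 169.3 and 175.2 CPM, a difference of -0.27 (SE 0.09, adjusted p = 0.0220, edgeR). The Fads1 groups did not overlap, yet it no longer passed without NC 2 (-0.19) or without KO 1 (-0.24). Its head-to-head neighbour Fads2, the delta-6 desaturase, was at 128.5 and 154.2 CPM in NC and 163.0 and 150.0 CPM in KO (log2 difference 0.15, SE 0.10, adjusted p = 0.255, edgeR). Exons of Elovl6 overlap those of Gm35986 on the other strand.

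The stearoyl-CoA desaturases place the first double bond into saturated chains. Scd2 was the most abundant RNA of the 41 genes, with a mean of 383.5 TPM over the libraries. In CPM it was measured at 1472 and 1807 in NC and at 1883 and 2011 in KO, without overlap but with an NC spread wider than the gap between the groups, and the log2 difference of 0.25 (SE 0.10, adjusted p = 0.0580, edgeR) missed the threshold. It passed without NC 2 (0.41), without KO 1 (0.30), with no filter on low counts (0.23) and with a stricter filter (0.27), and was 0.11 without NC 1. Scd1 differed by -0.14 (SE 0.09, adjusted p = 0.272, edgeR). Reads of Scd1 and Scd2, close paralogs, can be divided between them by the counting. Of the other elongases, Elovl1 differed by -0.19 (adjusted p = 0.0981) and Elovl5 by -0.11 (adjusted p = 0.412, both edgeR), and neither passed.

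Promoter sequence is shown for the members with the largest differences and for 1 pair of divergent genes. Each window surrounds 1 annotated start, which need not be the first start of the gene or the one used in these cells. RefSeq windows of 250 bases before to 50 bases after an annotated start (build GRCm38.p6) were found for 35 of the 41 genes. Capitals mark the CCAAT box (CCAAT) and the GC box (GGGCGG), searched on both strands, so that ATTGG and CCGCCC are the same motifs on the other strand. In the Acss2 window, chr2:155517793-155518092 on the plus strand, there were 5 GC boxes and 1 CCAAT box. In the Acacb window, chr5:114165268-114165567 on the plus strand, there was 1 CCAAT box and no GC box. This window surrounds an internal start, as the gene begins at 114146535 in GENCODE M21, and sequence at that first start is not shown. Elovl6, chr3:129532136-129532435 on the plus strand, held neither. Acsl5, chr19:55253119-55253418 on the plus strand, held 1 CCAAT box, and this window too lies inside the gene, which begins at 55251938. Hadhb, chr5:30155003-30155302 on the plus strand, held 4 GC boxes, and lies head to head with Hadha, whose gene start is 86 bases away.
Acss2: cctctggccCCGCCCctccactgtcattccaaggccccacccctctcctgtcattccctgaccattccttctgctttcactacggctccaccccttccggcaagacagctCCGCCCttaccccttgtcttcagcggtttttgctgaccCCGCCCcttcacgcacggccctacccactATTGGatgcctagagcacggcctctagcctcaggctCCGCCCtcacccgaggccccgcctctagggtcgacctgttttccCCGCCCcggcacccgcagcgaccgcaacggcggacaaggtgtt
Acacb: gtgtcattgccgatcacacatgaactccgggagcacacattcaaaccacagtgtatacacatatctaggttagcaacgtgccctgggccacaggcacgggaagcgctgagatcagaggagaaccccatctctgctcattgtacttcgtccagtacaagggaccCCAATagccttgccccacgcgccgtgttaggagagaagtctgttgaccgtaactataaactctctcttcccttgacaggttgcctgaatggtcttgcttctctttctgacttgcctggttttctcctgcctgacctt
Elovl6: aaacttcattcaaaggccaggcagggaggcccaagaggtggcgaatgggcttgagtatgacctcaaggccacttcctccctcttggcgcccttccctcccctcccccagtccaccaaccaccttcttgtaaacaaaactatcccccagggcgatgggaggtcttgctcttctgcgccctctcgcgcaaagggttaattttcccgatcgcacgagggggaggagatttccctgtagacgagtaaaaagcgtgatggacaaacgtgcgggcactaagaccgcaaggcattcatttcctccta
Acsl5: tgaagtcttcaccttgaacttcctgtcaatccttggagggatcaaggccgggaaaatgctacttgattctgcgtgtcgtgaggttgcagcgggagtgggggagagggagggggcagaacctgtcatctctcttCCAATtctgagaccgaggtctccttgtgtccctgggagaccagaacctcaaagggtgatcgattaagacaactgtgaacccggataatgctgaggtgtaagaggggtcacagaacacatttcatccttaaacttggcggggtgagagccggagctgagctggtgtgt
Hadhb: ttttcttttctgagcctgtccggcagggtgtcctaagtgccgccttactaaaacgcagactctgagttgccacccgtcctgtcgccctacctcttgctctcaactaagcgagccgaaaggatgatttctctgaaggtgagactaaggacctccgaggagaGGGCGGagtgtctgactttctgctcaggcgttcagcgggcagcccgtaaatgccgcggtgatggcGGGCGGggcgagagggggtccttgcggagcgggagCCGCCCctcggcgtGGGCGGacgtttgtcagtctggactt

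A CCAAT box was present in 7 of 12 windows of synthesis genes (58.3%) and in 8 of 18 windows of oxidation genes (44.4%), beside 37.4% of all 32851 windows of the table. A GC box was present in 6 of 12 synthesis windows (50%) and in 15 of 18 oxidation windows (83.3%), beside 35.7% of all windows, which include those of noncoding genes. The E-box CACGTG, a motif of many basic helix-loop-helix factors, occurred in 7.15% of all windows, in 1 synthesis window (Elovl5) and in no oxidation window. The sterol element core CACCCCAC occurred in 2.87% of all windows and, among the oxidation genes, in that of Echs1, as well as in 1 of 10 windows of the activation, binding protein and receptor genes (Acsl1). A direct repeat of AGGTCA with 1 base between the copies occurred in 0.0396% of all windows and in none of these genes' windows. These matches describe letters in short windows and do not locate a bound site.

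Acyl-CoA synthetases attach coenzyme A to a fatty acid and so open both its oxidation and its storage. Of the 4 tested, 2 fell in KO and none rose. Acsl5, a form found at mitochondria and the endoplasmic reticulum, was measured at 223.1 and 223.0 CPM in NC and at 154.1 and 144.9 CPM in KO. The NC libraries were nearly equal, both KO libraries lay below them, and the difference was -0.58 (SE 0.09, 95% confidence interval -0.76 to -0.39, adjusted p = 1.55e-05, edgeR). Acsl1, a major long-chain form of liver, went from 195.4 and 196.4 CPM to 158.3 and 163.2 CPM, a difference of -0.28 (SE 0.09, adjusted p = 0.0138, edgeR). The Acsl1 groups did not overlap, and the call was lost without NC 1 (-0.29) or without NC 2 (-0.27). Acsl3, a lipid droplet form, differed by 0.06 (adjusted p = 0.651) and Acsl4, which prefers arachidonate, by 0.17 (adjusted p = 0.165, both edgeR). Exons overlap those of another gene on the other strand for Acsl5 (Zdhhc6) and Acsl1 (Gm45244).

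None of the 3 genes of the carnitine shuttle passed. Cpt1a, the liver form of the gatekeeping carnitine palmitoyltransferase 1, was measured at 71.2 and 78.6 CPM in NC and at 82.5 and 91.1 CPM in KO. The groups did not overlap but lay close, and the difference of 0.21 (SE 0.10, 95% confidence interval 0.01 to 0.41) had an adjusted p of 0.0851 in edgeR. It passed without KO 1 (0.28) and under a stricter filter on low counts (0.23). Cpt2, the inner-membrane transferase, differed by -0.01 (adjusted p = 0.956, edgeR), and Slc25a20, which carries acylcarnitines across the inner membrane, by 0.20 with a wide error (SE 0.20, adjusted p = 0.461, edgeR).

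Of the 12 enzymes of mitochondrial beta-oxidation, 2 rose in KO, 5 fell and 5 did not pass, beside 19.7% higher and 18.2% lower among all genes. The first step is taken by acyl-CoA dehydrogenases of different chain length, and these divided. Acadvl, which acts on very long chains, was measured at 32.5 and 26.4 CPM in NC and at 41.8 and 41.2 CPM in KO, and rose by 0.50 on the log2 scale (SE 0.12, 95% confidence interval 0.26 to 0.74, adjusted p = 0.00116, edgeR). Acadl, for long chains, gave 93.8 and 92.0 CPM in NC and 74.7 and 76.8 CPM in KO, and fell by 0.29 (adjusted p = 0.0137, edgeR). Acads, for short chains, was at 59.9 and 56.9 CPM in NC and 51.9 and 44.7 CPM in KO, and fell by 0.27 (SE 0.10, adjusted p = 0.0365, edgeR). None of these 3 genes had overlapping groups, while Acadm, for medium chains, differed by 0.02 (adjusted p = 0.892, edgeR). The Acadl call was lost without NC 1 (-0.28) or NC 2 (-0.30), and the Acads call without NC 1 (-0.24), NC 2 (-0.30) or KO 2 (-0.17). Exons of Acadvl overlap those of Dvl2 on the other strand.

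The later steps of the cycle leaned lower in KO for some enzymes and not for others. Echs1, the short-chain enoyl-CoA hydratase, went from 65.1 and 62.0 CPM to 51.2 and 52.6 CPM, a difference of -0.29 (SE 0.10, adjusted p = 0.0193, edgeR). Hadhb, the thiolase subunit of the trifunctional protein, went from 33.1 and 37.5 CPM to 27.6 and 28.9 CPM, a difference of -0.33 (SE 0.12, adjusted p = 0.0260, edgeR). Its partner subunit Hadha, transcribed from the adjoining divergent start shown above, was measured at 83.6 and 72.6 CPM in NC and 76.5 and 71.7 CPM in KO. The Hadha groups overlapped, with a difference of -0.08 (adjusted p = 0.579, edgeR), whereas those of Hadhb and Echs1 did not overlap. The Echs1 call was lost without NC 1 (-0.26) or KO 1 (-0.27), and that of Hadhb without NC 2 (-0.22) or KO 1 (-0.29). The remaining enzymes of the main cycle, Hadh (-0.08, adjusted p = 0.496) and the thiolase Acaa2 (0.08, adjusted p = 0.635, both edgeR), did not pass. Exons of Echs1 overlap those of Paox on the other strand.

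Unsaturated chains need isomerases and a reductase before the cycle can take them. The 2 isomerases moved in opposite directions. Eci1 was measured at 21.99 and 20.07 CPM in NC and at 14.2 and 15.8 CPM in KO, and fell by 0.49 on the log2 scale (SE 0.14, 95% confidence interval -0.77 to -0.20, adjusted p = 0.00682, edgeR). Eci2, which is also found in peroxisomes, was at 31.8 and 25.7 CPM in NC and 35.3 and 35.2 CPM in KO, and rose by 0.30 (SE 0.12, adjusted p = 0.0463, edgeR). Its NC spread was wider than the gap between the groups. Neither gene had overlapping groups, but Eci2 lay near the threshold and lost its call without NC 2 (0.16), KO 1 (0.30) or KO 2 (0.30) and with no filter on low counts (0.29), while its difference without NC 1 was 0.46. Eci1 lost its call without NC 1 (-0.42). Decr1, the 2,4-dienoyl-CoA reductase, differed by -0.19 (adjusted p = 0.238, edgeR). Exons of Eci2 overlap those of Gm16984 on the other strand.

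The electron transfer flavoprotein takes electrons from the acyl-CoA dehydrogenases, and its oxidoreductase hands them to ubiquinone. Etfdh, the oxidoreductase, was measured at 30.9 and 39.6 CPM in NC and at 49.3 and 43.0 CPM in KO, and rose by 0.38 in log2 units (SE 0.12, adjusted p = 0.0107, edgeR). Etfb, the beta subunit, was at 27.0 and 26.5 CPM in NC and at 21.71 and 21.03 CPM in KO, and fell by 0.32 (SE 0.12, adjusted p = 0.0415, edgeR). In CPM the groups overlapped for neither, but in TPM those of Etfb did (44.97 and 54.16 in NC, 46.59 and 41.11 in KO). For Etfdh the spread within each group was wider than the gap between the groups. Etfa, the alpha subunit that pairs with Etfb, differed by -0.08 (SE 0.14, adjusted p = 0.700, edgeR). The Etfdh call was lost without NC 1 (0.22) or KO 1 (0.28), and its difference without NC 2 was 0.59. The Etfb call was lost in each fit that left out 1 library, at -0.34 to -0.30, and with a stricter filter on low counts (-0.30). Exons of Etfb overlap those of Gm45233 and Mir7051, and exons of Etfdh those of 4930579G24Rik. DESeq2 kept 10 of the 16 calls, and 25.7% of all genes passed there. Acads, Hadhb, Echs1, Eci2, Etfb and Etfdh did not pass with DESeq2.

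None of the 3 peroxisomal enzymes passed, and the binding protein and receptors were low. Ehhadh, the bifunctional enzyme of peroxisomal oxidation, had 2.38 and 2.38 CPM in NC and 3.26 and 3.48 CPM in KO. The groups did not overlap, but with so few counts the difference of 0.50 (SE 0.31, 95% confidence interval -0.13 to 1.13, adjusted p = 0.203, edgeR) did not pass. Acaa1a, the peroxisomal thiolase, differed by 0.07 (adjusted p = 0.743) and Hsd17b4, the other bifunctional enzyme, by -0.03 (adjusted p = 0.855, both edgeR). Ppara, the nuclear receptor that drives oxidation genes in liver, was counted 3 and 5 times in NC libraries, 3 and 6 times in KO libraries, and was too low to test. Fabp1, the liver fatty acid binding protein, was at 0 counts in all 4 libraries, and a count of 0 allows up to 3 counts, or 0.217 to 0.264 CPM. Pparg, the receptor known from fat cells, was counted 67 times in NC 1, 45 times in NC 2, 41 times in KO 1 and 48 times in KO 2. Its groups overlapped and the difference of -0.43 (SE 0.30, adjusted p = 0.256, edgeR) depended on the NC library used, being -0.81 and past the threshold without NC 2 and 0.04 without NC 1.

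As sums, synthesis outweighed oxidation in every library. The 13 synthesis genes added up to 1178 and 1400 TPM in NC and to 1389 and 1310 TPM in KO. The 21 oxidation genes added up to 593 and 605 TPM in NC and to 622 and 564 TPM in KO. The ratio of the sums was 1.99 and 2.31 in NC and 2.23 and 2.32 in KO, so that the groups overlapped, and 2 against 2 libraries cannot give a two-sided exact permutation p below 0.333. Without NC 1 the KO minus NC difference of the log2 ratio went from 0.09 to -0.02. Scd2 alone made up 25.5% and 27.7% of the synthesis sum in NC and 30.1% and 32.7% in KO, and with Scd2 set aside the ratio was 1.48 and 1.67 in NC and 1.56 and 1.56 in KO. The most abundant RNA after Scd2 was that of Fasn, at a mean of 163.1 TPM, followed closely by Elovl1 (162.9 TPM) and Scd1 (157.5 TPM). The most abundant oxidation gene was Hadh, at 70.4 TPM, and the least abundant tested members were Acacb at 1.36 TPM and Ehhadh at 1.17 TPM. By class, 5 of 13 synthesis genes passed (38.5%, median log2 difference -0.11) and 9 of 21 oxidation genes (42.9%, median -0.03), both near the 37.9% of all genes.

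**Figure D3:**
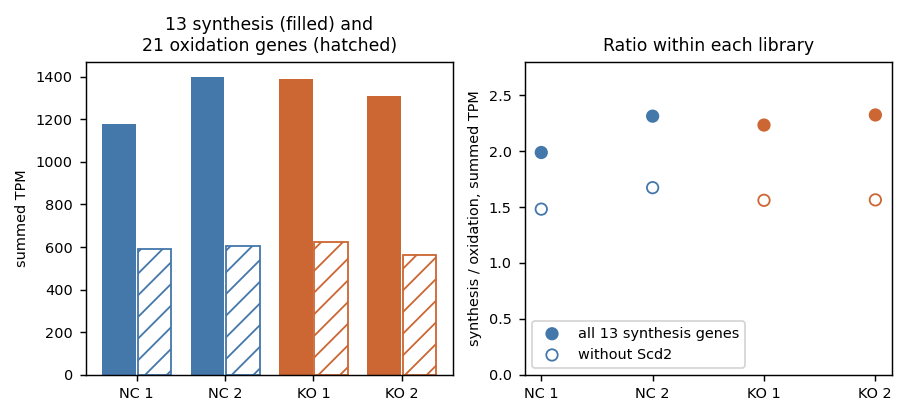
Summed TPM of the 13 synthesis genes (filled bars) and 21 oxidation genes (hatched bars) in each library on the left, and the ratio of these sums with all synthesis genes (filled points) and without Scd2 (open points) on the right; NC in blue, KO in orange. Synthesis stands at 1178 to 1400 TPM and oxidation at 564 to 622 TPM, and the ratios of the groups overlap.

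Within several steps, ratios of TPM between related genes differed between the groups. These pairs were picked after their values had been seen, and their ratios are given as a description without a test. Some pairs, such as Eci2 and Eci1, join genes called in opposite directions above, so that a difference in their ratio follows from those calls. The ratio of Acacb to Acaca was 0.0235 and 0.0881 in NC, against 0.152 and 0.268 in KO. That of Acss2 to Acly was 0.0591 and 0.0625 in NC and 0.1009 and 0.1197 in KO. In both, the less abundant gene gained on the other and stayed far below it. Scd2 stood at 1.999 and 2.230 times Scd1 in NC and at 2.78 and 2.75 times in KO, and Fads2 at 1.66 and 1.79 times Fads1 in NC and at 2.45 and 2.17 times in KO. Acsl5 was 4.23 and 3.85 times Acsl4 in NC and 2.44 and 2.13 times in KO. In oxidation, Eci2 to Eci1 went from 1.16 and 0.993 to 2.004 and 1.693, Acadvl to Acadl from 0.437 and 0.393 to 0.736 and 0.687, and Etfdh to Etfb from 0.363 and 0.422 to 0.634 and 0.592. In these 8 pairs the NC and KO libraries did not overlap, but how often the ratios of other gene pairs do so was not counted. The Acacb ratio rests on 0.25 and 1.03 TPM of Acacb in NC and 1.88 and 2.27 TPM in KO. On the log2 scale its NC ratios lay further apart than those of NC 2 and KO 1. For Elovl6 to Elovl5, Hadhb to Hadha and Etfb to Etfa the groups overlapped.

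**Figure D4:**
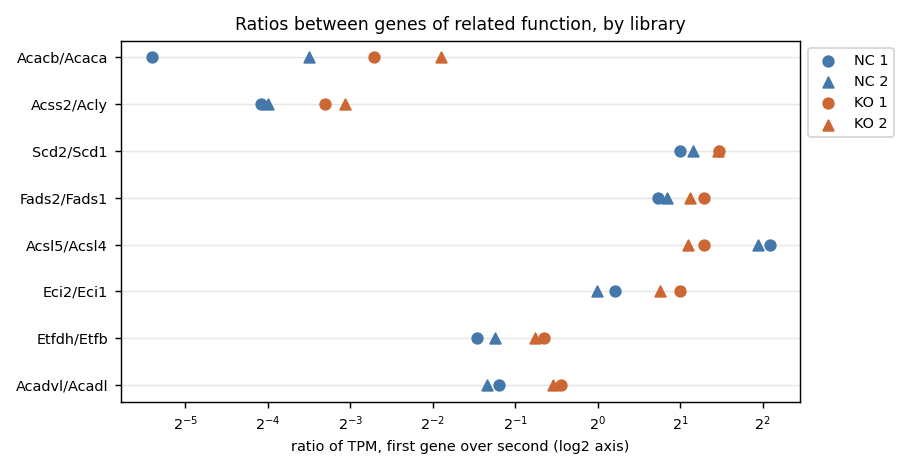
Ratio of TPM between paired genes in each library (horizontal log2 axis), for the 8 pairs whose groups did not overlap, with NC in blue and KO in orange. The KO points of Acacb to Acaca (0.152 and 0.268) lie to the right of the NC points (0.0235 and 0.0881), and those of Acsl5 to Acsl4 (2.44 and 2.13) to the left (4.23 and 3.85).

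Around these 41 genes, 95 further genes of lipid metabolism and its control were listed, of which 82 were tested, 16 rose and 15 fell, or 37.8%, beside the 37.9% of all genes. The counts by list below stand beside 19.7% higher and 18.2% lower among all genes, and most lists are short. Mlxipl, which encodes the carbohydrate response factor ChREBP, was measured at 5.72 and 5.13 CPM in NC and at 28.2 and 31.0 CPM in KO. Its KO values lay far above the NC values, and the difference was 2.45 on the log2 scale (SE 0.16, adjusted p = 3e-12, edgeR). Of the 10 lipogenic regulators tested, 3 rose and 4 fell: besides Mlxipl, the sterol-sensing retention proteins Insig1 (0.83, adjusted p = 2.38e-05) and Insig2 (0.47, adjusted p = 0.000989, both edgeR) rose. Mid1ip1, whose protein promotes polymerisation of acetyl-CoA carboxylase, fell by 0.84 (adjusted p = 2.47e-07, edgeR). Among 15 further enzymes of synthesis and elongation none rose and 5 fell, among them the elongation-cycle dehydratases Hacd2 (-0.64, adjusted p = 9.15e-06) and Hacd3 (-0.43, adjusted p = 0.000867), the mitochondrial reductase Mecr (-0.56, adjusted p = 0.00545) and the elongase Elovl2 (-0.86, adjusted p = 0.0115, all edgeR). Elovl2 lost its call without NC 2 (-0.61), with DESeq2 and with limma on log2(TPM + 1) (-0.44), Mecr with DESeq2, and Hacd3 with limma on log2(TPM + 1) (-0.36). Insig2 kept its call there at a larger value (0.81). The exons of Mlxipl overlap those of Gm43500.

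On the oxidation side, 3 of 10 regulators rose and 1 fell. Ppard, a nuclear receptor for fatty acids, rose by 0.48 (adjusted p = 0.000199), Mlycd, which breaks down malonyl-CoA, by 0.81 (adjusted p = 0.0212) and Nr1d1, a clock repressor, by 0.36 (adjusted p = 0.00833), whereas the coactivator Ppargc1a fell by 0.85 (adjusted p = 0.00106, all edgeR). Mlycd lost its call without NC 2 (0.77) or KO 1 (0.68), with DESeq2 and with limma on log2(TPM + 0.1) (0.83), and Nr1d1, whose exons overlap those of Thra, without NC 1 (0.23) or KO 2 (0.26). With limma on log2(TPM + 1) neither Ppargc1a (-0.32) nor Nr1d1 (0.42) passed. Of 14 further genes listed under mitochondrial oxidation, not all of them mitochondrial enzymes, 2 rose and none fell. These were Acad10 (0.94, adjusted p = 0.00283) and Cpt1c (0.28, adjusted p = 0.0296, both edgeR). Of 13 further peroxisomal genes 3 rose and 2 fell. Here the racemase Amacr fell by 1.05 (adjusted p = 1.42e-06), while the oxidase Acox3 rose by 0.70 (adjusted p = 0.00143, both edgeR). The call of Cpt1c was lost without NC 1 (0.22) or KO 1 (0.23), with no filter on low counts (0.27), with DESeq2 and with limma on log2(TPM + 1) (0.38), and that of Acox3 with the last (0.34).

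Ketone bodies are made from the acetyl-CoA of oxidation. Of 5 ketone body genes, 2 rose and 2 fell. Bdh1, the hydroxybutyrate dehydrogenase, had 5.63 and 5.05 CPM in NC and 1.37 and 1.18 CPM in KO, a fall of 2.06 on the log2 scale and the widest of these lists (adjusted p = 1.08e-05, edgeR). Oxct1, the ketolytic transferase, fell by 0.53 (adjusted p = 6.01e-05) and Acat1, the mitochondrial thiolase, rose by 0.27 (adjusted p = 0.0496, both edgeR). Acat1 lost its call without NC 2 (0.18) or KO 1 (0.20), with no filter on low counts (0.26) and with DESeq2. With limma on log2(TPM + 1) neither Acat1 (0.31) nor Oxct1 (-0.41) passed, and Bdh1 kept its call at -1.26. Of 15 genes of uptake, storage and lipolysis, 3 rose and 1 fell. Lpin1 rose by 0.57 (adjusted p = 6.05e-05), Lpin2 by 0.63 (adjusted p = 1.83e-05) and Hilpda by 0.43 (adjusted p = 0.00155, all edgeR). Fabp5 fell (-0.47, adjusted p = 0.00149, edgeR). It lost its call without KO 2 (-0.30) and with limma on log2(TPM + 1) (-0.45).

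**Figure D5:**
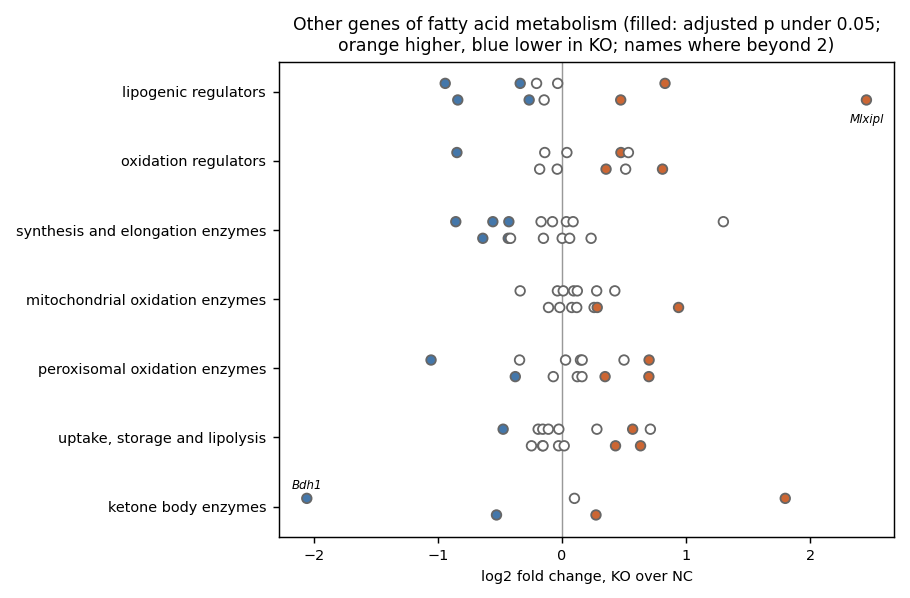
Log2 difference KO minus NC (horizontal axis) of the 82 further lipid genes tested, one row per list, with genes past an adjusted p of 0.05 filled (orange higher, blue lower in KO). Mlxipl (2.45) lies farthest to the right and Bdh1 (-2.06) farthest to the left.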

How the data were processed

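RNA sequencing of 4 libraries of Hepa1-6 cells was analysed, 2 labelled NC and 2 labelled KO. The authors deposited 1 table per library with RSEM expected counts and TPM per gene, per the file headers. Total RNA was taken with TRIzol and the libraries were made with a directional kit, per the labels' protocols. FastQC, STAR, RSEM, DESeq2 and the build GRCm38 (mm10) are named in the submitters' processing notes. Versions, annotation release and the strand setting of the counting are not given in the sources used here. The strand setting bears on the 12 of the 41 genes whose exons overlap another gene on the other strand.

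Expected counts were rounded to whole numbers, filtered with filterByExpr, scaled by TMM and fitted for all 12510 genes that passed with edgeR 4.0.16 (R 4.3.3), glmQLFit and glmQLFTest, with the group as the only term. P-values were adjusted over all these genes (Benjamini-Hochberg), with a threshold of 0.05. Standard errors and intervals come from this fit. Changed normalization, filters, DESeq2 1.42.0, limma 3.58.1 on log2(TPM + 1) or log2(TPM + 0.1), the replicate number as a block and the omission of each library were tried as alternatives. The 41 genes and all gene lists were chosen with earlier results of these data known. All 41 genes are accounted for. In each list of further genes, up to 4 genes with the lowest p past the threshold are named with their values (a few genes of these lists are not reported here), and alternatives for these were added after the data had been seen. Gene positions and overlaps were read from GENCODE M21, where all 41 gene IDs were found, 35 with the same version. Promoter windows come from RefSeq (GRCm38.p6).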

Additional observations from a re-analysis of the deposited data

How the results depend on the processing

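With 2 libraries a group, several calls of small differences depended on the analysis. Over all genes, 4741 passed in edgeR, 2158 with limma on log2(TPM + 1), 2099 on log2(TPM + 0.1) and 0 on log2(TPM + 1) with no filter on low values, where 4506 had an unadjusted p under 0.05. Among the 41 genes, 16 passed in edgeR, 10 with DESeq2, 5 with either filtered TPM analysis and 0 with the unfiltered one, and 10 to 13 when 1 library was left out. The causes were not tested. Of all genes called, 51.9% were higher in KO in edgeR and 68.0% with log2(TPM + 1). The median over oxidation genes, -0.03, became 0.0107 with log2(TPM + 1), filtered or not, and 0.0109 with log2(TPM + 0.1), and ranged from -0.077 to 0.027 when 1 library was left out. The median over synthesis genes then ranged from -0.20 to 0.019, and the difference of the log2 ratio of summed TPM from -0.022 to 0.20. Signs turned for 11 single genes, none past the threshold in the first analysis. Cpt2 was 0.012 with the stricter filter, 0.028 with log2(TPM + 1), filtered or not, and 0.029 with log2(TPM + 0.1). Hsd17b4 was likewise 0.028 and 0.029, and Fasn was -0.0040 with no filter on low counts. With 1 library left out the log2 differences ranged from -0.035 to 0.19 for Acaa1a, -0.042 to 0.19 for Acaa2, -0.047 to 0.092 for Acadm, -0.018 to 0.13 for Acsl3, -0.082 to 0.062 for Cpt2, -0.21 to 0.019 for Elovl5, -0.17 to 0.022 for Etfa, -0.11 to 0.12 for Fasn, -0.17 to 0.028 for Hadha, -0.051 to 0.0032 for Hsd17b4 and -0.81 to 0.037 for Pparg. Same-numbered libraries did not deviate together (correlation -0.0116 across genes). With the replicate block 5006 genes and 17 of the 41 passed, Scd2 (0.25) being added, and it changed no other call among the 41.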
